A study of Mus musculus with 4 samples.

Results

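The 10 genes described here encode secreted or membrane-bound proteases that cut the extracellular matrix, inhibitors of those proteases, and the cell-surface receptor of urokinase. They were taken by name: Mmp2, Mmp3, Mmp9, Mmp10, Mmp13, Mmp14, Timp1, Timp3, Plau and Plaur, 10 of the 50679 Ensembl gene identifiers in the deposited table. The samples are 4 RNA-seq libraries from cultured mammary tumour cells of mice with PyMT, the polyoma middle T oncogene. There were 2 libraries of PCNA 211F and 2 of PCNA WT, where PCNA is the replication clamp and the file headers write the variant as Y211F. Both genotypes share the oncogene and the same handling. Tumours of mice aged 10 weeks were dissociated, EpCAM antibody was used to capture epithelial cells, and these went into serum-containing culture at a plating density of 100000 cells, per the labels' protocols. The libraries are called 211F 1, 211F 2, WT 1 and WT 2. The design text speaks of biological repeats but does not say that each came from its own animal. The p-values thus set a difference against the spread between these libraries, which may not be the spread between animals.

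Matrix metalloproteases are made as inactive proenzymes and cut collagens, laminins and other matrix proteins once activated. Tissue inhibitors of metalloproteases (TIMPs) bind the active enzyme and block it. Urokinase, the product of Plau, sits on its receptor, the product of Plaur, and converts plasminogen to plasmin, which cuts fibrin and can activate several prometalloproteases. In the mammary gland these enzymes take part in the branching of ducts and in the remodelling of the gland after lactation, and in tumours they are known both from the cancer cells and from the stroma around them.

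Levels are in FPKM, a fragment count scaled to transcript length and to the library total, so they can be set side by side between genes. Between 11902 genes (211F 2) and 12278 genes (211F 1) reached 1 FPKM in a library. The smallest steps between low values put 3 fragments in 1 kb at 0.0777 FPKM in 211F 1, 0.0914 in 211F 2, 0.0857 in WT 1 and 0.0497 in WT 2, and levels near these are read as near 0. The libraries differed in epithelial RNA. The summed level of 10 epithelial markers, Epcam and Cdh1 among them, was 3295 FPKM in 211F 1, 3471 in 211F 2, 3027 in WT 1 and 7.10 in WT 2, so the labelled epithelial type lacks its defining markers in WT 2. The similar sums of 211F 1, 211F 2 and WT 1 hide differences between single markers. Epcam was at 77.3 FPKM in 211F 1, 450 in 211F 2 and 444 in WT 1. Cdh1, Cldn7, Esrp1, Grhl2 and Krt18 were also lower in 211F 1 than in 211F 2 and WT 1. Krt5, at 1029 FPKM in 211F 1, 3.84 in 211F 2 and 245 in WT 1, went the other way, as did Cldn4. Krt8 and Krt14 in 211F 1 lay between 211F 2 and WT 1. The summed level of 10 genes of mesenchymal state, Vim among them, was 4046 FPKM in 211F 1, 79.1 in 211F 2, 355 in WT 1 and 3570 in WT 2. For 10 fibroblast markers it was 282 FPKM in 211F 1, 6.40 in 211F 2, 51.7 in WT 1 and 1080 in WT 2. Col1a1 stood at 2.70, 0.566, 0.542 and 437 FPKM in that order. Most of the fibroblast sum in WT 2 came from Col1a1, Col1a2 (416 FPKM) and Col3a1 (118 FPKM), and Dcn, Pdgfra and Pdgfrb were also highest there. Postn, at 235 FPKM in 211F 1 and 2.04 in WT 2, made up most of the sum in 211F 1. Thy1 was also higher in 211F 1 (10.7 FPKM) than in WT 2 (1.67), and Fap and Lum were under 1 FPKM in all 4 libraries. Summed levels were at most 2.17 FPKM for 8 endothelial, 2.28 for 5 adipocyte and 0.157 for 8 lymphoid markers in any library, and the leukocyte marker Ptprc was at most 0.0180 FPKM. Because whole cultures were sequenced, fewer cells of a type and less RNA per cell cannot be told apart.

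Mmp14 set the libraries apart more than almost any other gene. It encodes a metalloprotease anchored in the plasma membrane, which cuts collagen at the cell surface and activates the proenzyme of Mmp2. The gene (ENSMUSG00000000957) lies on GRCm38 chromosome 14, 54431612 to 54445364, plus strand. Mmp14 stood at 192 FPKM in 211F 1 and 0.0580 in 211F 2, against 0.223 FPKM in WT 1 and 74.6 in WT 2. Each genotype thus had 1 library with abundant Mmp14 and 1 at under 1 FPKM, and the groups overlapped. On the log2(FPKM + 1) scale the gap between the 2 libraries was 7.51 within 211F and 5.95 within WT, and 99.7% of the tested genes had a smaller largest gap. The difference of 211F minus WT was 0.57 ± 3.39 on that scale (SE from limma, n = 2 each). Without WT 2 it was 3.55, and without 211F 1 it was -3.18. The libraries with abundant Mmp14 are those with the high summed mesenchymal markers given above; the part of that state in the Mmp14 level was not tested.

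Mmp2, gelatinase A, which cuts denatured collagen and the type IV collagen of basement membranes, was abundant in 1 library. The gene (ENSMUSG00000031740) lies on chromosome 8, 92827291 to 92853420, plus strand. It stood at 1.80 FPKM in 211F 1 and 0.952 in 211F 2, against 4.36 FPKM in WT 1 and 202 in WT 2. Both 211F libraries lay below both WT libraries, and WT 2 stood far above the rest. The difference was -3.82 ± 1.88 (SE, n = 2 each; log2 scale), and it shrank to -1.20 without WT 2. In 211F 1, where Mmp14 was highest, Mmp2 was low, while in WT 2 both were high. WT 2 is also the library with Col1a1 at 437 FPKM and the highest summed fibroblast markers, most of that sum from collagen genes. The part of these markers in the Mmp2 level was not tested.

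The 3 members of the chromosome 9 cluster were expressed at low levels. Mmp13, Mmp3 and Mmp10 lie in that order on the plus strand of GRCm38 chromosome 9, starting at 7272514, 7445822 and 7502352. Mmp13 encodes a collagenase of fibrillar collagen, and Mmp3 and Mmp10 encode stromelysins, which cut a broad range of matrix proteins. Mmp3 stood at 4.82 FPKM in 211F 1 and 0.328 in 211F 2, against 0.457 FPKM in WT 1 and 2.41 in WT 2. Mmp10 stood at 1.81 FPKM in 211F 1 and 0.269 in 211F 2, against 0.0356 FPKM in WT 1 and 0.437 in WT 2. Both stromelysin genes were highest in 211F 1 and second highest in WT 2, and for both the groups overlapped. Mmp13 stood at 0.835 FPKM in 211F 1 and 0.679 in 211F 2, against 0.416 FPKM in WT 1 and 4.43 in WT 2, so WT 2 alone exceeded 1 FPKM. From the step sizes, the level of Mmp10 was worth about 120 fragments in 211F 1, 15.2 in 211F 2, 2.15 in WT 1 and 45.5 in WT 2. For Mmp3 it was about 335 fragments in 211F 1 and 19.4 in 211F 2, compared with 28.8 for WT 1 and 262.5 for WT 2. Mmp13 had about 86.2 fragments in 211F 1 and 59.6 in 211F 2, compared with 38.9 for WT 1 and 716 for WT 2. The high values of Mmp3 and Mmp13 thus rest on many more fragments than the low values of Mmp3 and Mmp10. The transcripts of Mmp3 and Mmp10 share sequence: 140 of 1673 stretches of 50 bases in Mmp10 also occur in Mmp3, so reads there could have been counted to either. Mmp10, at a mean below 1 FPKM, was not tested. The differences were 0.32 ± 0.98 for Mmp3 and -0.66 ± 0.83 for Mmp13 (SE, n = 2 each; log2 scale), and without WT 2 they were 0.93 and 0.31.

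The sequence before the start of these genes is shown because Mmp3, Mmp10, Mmp13 and Plaur share a match to the AP-1 motif there. Mmp14, which had the widest gaps between libraries, holds none, and neither do Timp1 and Timp3, whose sequences are not printed. The sequences come from the RefSeq promoter table on GRCm38.p6, in which 7 of the 10 genes were matched; Mmp2, Mmp9 and Plau have no entry. Each runs 5′ to 3′ on the plus strand and ends with the base before the RefSeq start, at chr9:7445572-7445821, chr9:7502092-7502341, chr9:7272264-7272513, chr7:24462233-24462482 and chr14:54431348-54431597. Capitals mark each match, on either strand, to 4 motifs. The AP-1 motif was searched as TGANTCA and the motif of the ETS family as GGAAGT. The letters taken for a TATA box were TATAAA, and those for a GC box were GGGCGG.
Mmp3: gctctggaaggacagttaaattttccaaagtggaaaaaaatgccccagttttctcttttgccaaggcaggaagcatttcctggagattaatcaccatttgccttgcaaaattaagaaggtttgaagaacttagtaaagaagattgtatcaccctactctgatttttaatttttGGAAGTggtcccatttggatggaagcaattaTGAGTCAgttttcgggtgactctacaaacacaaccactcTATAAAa
Mmp10: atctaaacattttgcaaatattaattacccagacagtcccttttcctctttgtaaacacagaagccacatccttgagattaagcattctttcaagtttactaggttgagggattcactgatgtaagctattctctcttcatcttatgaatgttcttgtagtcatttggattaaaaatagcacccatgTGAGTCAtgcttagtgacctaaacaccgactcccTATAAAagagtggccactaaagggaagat
Mmp13: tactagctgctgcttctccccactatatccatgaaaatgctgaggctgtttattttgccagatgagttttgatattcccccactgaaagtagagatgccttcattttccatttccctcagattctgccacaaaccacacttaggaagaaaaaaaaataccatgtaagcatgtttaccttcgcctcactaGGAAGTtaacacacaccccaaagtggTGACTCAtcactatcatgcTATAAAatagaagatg
Plaur: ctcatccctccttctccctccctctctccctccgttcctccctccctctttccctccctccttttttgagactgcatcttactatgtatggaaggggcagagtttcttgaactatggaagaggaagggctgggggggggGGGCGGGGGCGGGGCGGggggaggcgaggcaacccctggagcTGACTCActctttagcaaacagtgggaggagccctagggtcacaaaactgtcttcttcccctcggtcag
Mmp14: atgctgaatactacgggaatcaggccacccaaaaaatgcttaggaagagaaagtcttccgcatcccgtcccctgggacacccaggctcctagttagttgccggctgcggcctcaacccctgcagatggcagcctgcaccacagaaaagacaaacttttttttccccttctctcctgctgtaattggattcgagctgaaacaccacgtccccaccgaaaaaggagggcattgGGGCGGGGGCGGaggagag
The AP-1 match begins 46 bases before the RefSeq start in Mmp3, 63 in Mmp10, 35 in Mmp13 and 69 in Plaur. These distances depend on where each RefSeq start was placed. In Mmp10 it lies at 7502342, not at the gene start of 7502352 given above. The TATA box letters begin 7 bases before it in Mmp3, 29 in Mmp10 and 16 in Mmp13. It reads TGAGTCA in Mmp3 and Mmp10 and TGACTCA in Mmp13 and Plaur. Of 32851 promoter windows of 250 bases in the table, 6.75% hold a match to that motif, beside 4 of the 7 matched genes. The TATA box letters occur in Mmp3, Mmp10 and Mmp13, 3 of the 7 matched genes, and in 12.4% of all windows. The GC box occurs in Mmp14, Timp1, Timp3 and Plaur, 4 of the 7, and in 32.7% of all windows; in Plaur 2 of its 3 matches overlap by 1 base. The ETS letters occur in Mmp3, Mmp13 and Timp1, and in 19.7% of all windows. The metalloprotease genes of the cluster are related copies, so their shared letters do not count as separate cases. These matches describe letters in a window and say nothing of which factor binds.

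The other metalloprotease genes of the cluster, read as background to these 3, were low. Mmp8, Mmp20, Mmp27, Mmp1a, Mmp1b and Mmp12 were under 1 FPKM in all 4 libraries. Mmp7, matrilysin, an epithelial metalloprotease at the far end of the cluster, was listed at 0 in 211F 1 and stood at 0.206 FPKM in 211F 2, against 2.01 FPKM in WT 1 and 0.0555 in WT 2. WT 1, where Mmp7 was highest, was the library in which Mmp10 and Mmp13 were lowest.

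**Figure D1:**
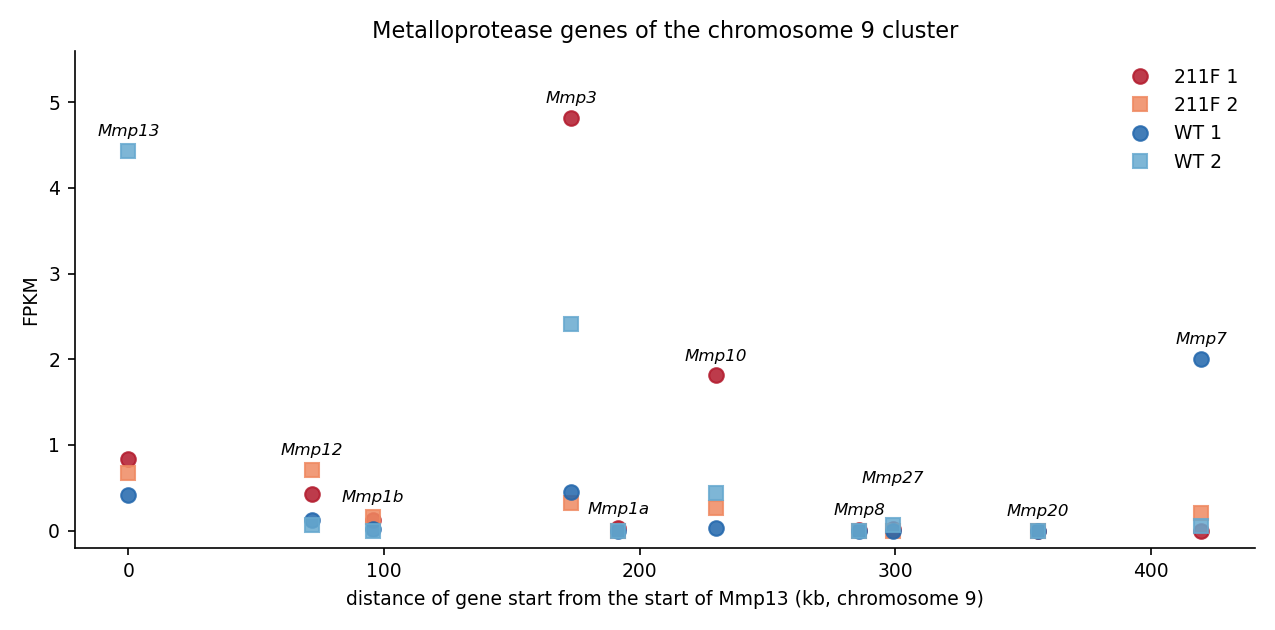
FPKM (linear axis) of the metalloprotease genes of the chromosome 9 cluster in each of the 4 libraries, against the distance of the gene start from that of Mmp13 in kb; each point is 1 library. Mmp3 and Mmp10 are highest in 211F 1 (4.82 and 1.81 FPKM), Mmp13 in WT 2 (4.43) and Mmp7 in WT 1 (2.01), and the other genes stay under 1 FPKM.

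Mmp9, gelatinase B, is the second enzyme of its kind among these genes and lies on chromosome 2, 164940780 to 164955850, plus strand (ENSMUSG00000017737). It stood at 1.98 FPKM in 211F 1 and 0.175 in 211F 2, against 0.477 FPKM in WT 1 and 2.10 in WT 2. The order of the libraries was close to that of Mmp3, and the groups overlapped. Mmp9 differed by -0.19 ± 0.77 (SE, n = 2 each; log2 scale), and by 0.34 without WT 2. Neutrophils and macrophages also make this enzyme; of 10 of their markers, the sum was 5.20 FPKM in 211F 1, 6.98 in 211F 2, 17.8 in WT 1 and 4.50 in WT 2. S100a8, a neutrophil protein, made up 13.5 FPKM of the sum in WT 1 and was listed at 0 in WT 2. The sums rest on few of the markers. Ptprc, Itgam, Adgre1, Ly6g, Mpo and Lyz2, 6 of the 10, were under 1 FPKM in all 4 libraries. Cd68, a macrophage protein, stood at 2.56 FPKM in 211F 1 and 1.27 in 211F 2, against 0.976 FPKM in WT 1 and 3.84 in WT 2. Of the 10 markers, only Cd68 and Lyz2 (at most 0.226 FPKM) were highest in the same pair of libraries as Mmp9. Csf1r, another marker of the list, stood at 1.39 FPKM in 211F 1 and 0.996 in 211F 2, against 1.30 FPKM in WT 1 and 0.312 in WT 2. The part of these cells in the Mmp9 level was not tested.

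**Figure D2:**
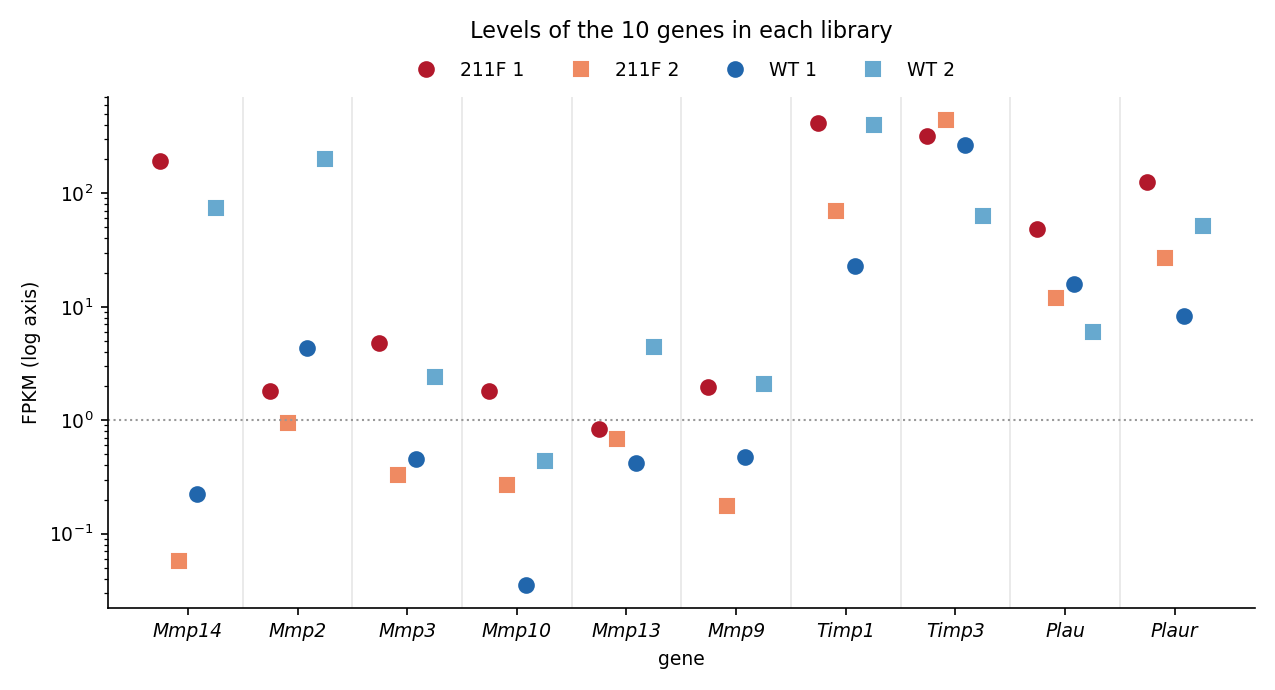
FPKM (log axis) of the 10 genes in each library, 211F libraries left of WT libraries; each point is 1 library and the dotted line marks 1 FPKM. Mmp14 reaches 192 FPKM in 211F 1 and 74.6 in WT 2 but stays under 1 in the other libraries, while Timp1 and Timp3 exceed 20 FPKM in all 4.

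The inhibitors were far more abundant than most of the proteases. Timp1 encodes a soluble inhibitor that blocks many secreted metalloproteases and acts weakly on the membrane-anchored ones. It (ENSMUSG00000001131; chromosome X, 20870166 to 20874735, plus strand, within Syn1) stood at 416 FPKM in 211F 1 and 69.4 in 211F 2, against 22.6 FPKM in WT 1 and 402 in WT 2. The libraries 211F 1 and WT 2 were the high ones again, and the groups overlapped, with a difference of 0.81 ± 1.71 (SE, n = 2 each; log2 scale). Without WT 2 the difference was 2.86, and without WT 1 it was -1.23. At its lowest, in WT 1, Timp1 was still at 22.6 FPKM, where Mmp14 was at 0.223.

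Timp3 encodes an inhibitor that binds to the matrix and also blocks ADAM proteases that shed cell-surface proteins. It (ENSMUSG00000020044; chromosome 10, 86300372 to 86349506, plus strand) stood at 319 FPKM in 211F 1 and 444 in 211F 2, against 265 FPKM in WT 1 and 63.3 in WT 2. Both 211F libraries lay above both WT libraries, with a difference of 1.53 ± 0.77 (SE, n = 2 each; log2 scale), and WT 2 stood lowest. Without WT 2 the difference was 0.50, with 211F 1 at 319 FPKM close above WT 1 at 265. Exons of Timp3 overlap those of Syn3 on the other strand, but Syn3 was at most 0.931 FPKM in any library.

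The balance of the 2 inhibitors differed between libraries. The ratio of Timp1 to Timp3 was 1.31 in 211F 1 and 0.156 in 211F 2, compared with 0.0854 in WT 1 and 6.36 in WT 2. Summed over Timp1 and Timp3, the level was 735 FPKM in 211F 1 and 513 in 211F 2, against 288 FPKM in WT 1 and 466 in WT 2. Summed over the 6 metalloproteases, it was 203 FPKM in 211F 1 and 2.46 in 211F 2, against 5.97 FPKM in WT 1 and 286 in WT 2. Summed inhibitor thus exceeded summed protease RNA in every library, by a ratio of 3.62 in 211F 1 and 209 in 211F 2, compared with 48.1 in WT 1 and 1.63 in WT 2. Timp2, which is described with the other inhibitors, was then added to the inhibitor sum, with the protease sum still of the 6 genes. The ratio was then 5.42 in 211F 1 and 360 in 211F 2, compared with 83.6 in WT 1 and 3.30 in WT 2. Both sets of ratios leave out the 17 other metalloproteases and would be lower with them. Those 17 summed to 32.6 FPKM in 211F 1 and 18.7 in 211F 2, against 30.9 FPKM in WT 1 and 81.4 in WT 2. Mmp14 made up 94.5% of the protease sum in 211F 1, and Mmp2 made up 70.6% of it in WT 2. These are ratios of RNA and say nothing of the proteins or of their activity.

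**Figure D3:**
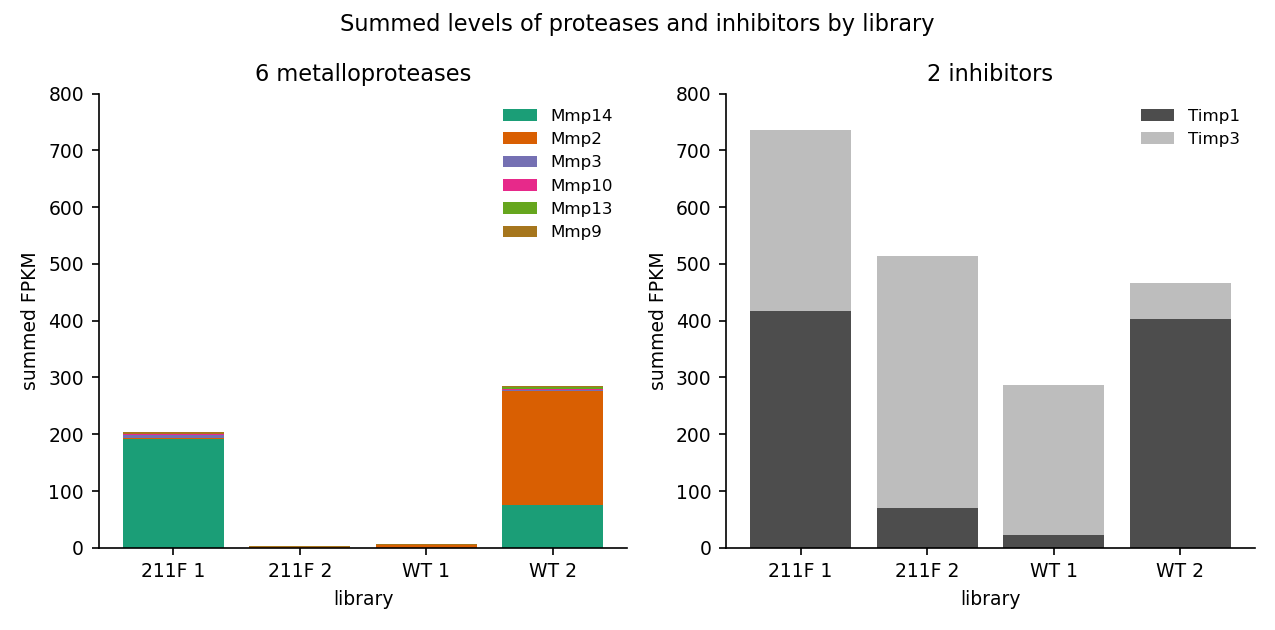
Summed FPKM (linear axis from 0) of the 6 metalloproteases (left) and of Timp1 and Timp3 (right) in each library, with colours for the genes. The protease sum is 203 FPKM in 211F 1, nearly all Mmp14, and 286 in WT 2, mostly Mmp2; the inhibitor sum is 288 to 735 FPKM, mostly Timp3 in 211F 2 and WT 1.

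Urokinase and its receptor were present in every library. Plau (ENSMUSG00000021822; chromosome 14, 20836660 to 20843385, plus strand) stood at 48.3 FPKM in 211F 1 and 12.05 in 211F 2, against 15.8 FPKM in WT 1 and 5.94 in WT 2. It was highest in 211F 1, and WT 2, which had high Timp1 and Mmp2, was here the lowest library. Plaur (ENSMUSG00000046223; chromosome 7, 24462484 to 24475968, plus strand) stood at 126 FPKM in 211F 1 and 27.0 in 211F 2, against 8.31 FPKM in WT 1 and 51.3 in WT 2. The groups overlapped for both genes, and receptor RNA exceeded that of urokinase in 3 of the 4 libraries. The ratio of Plaur to Plau was 2.61 in 211F 1 and 2.24 in 211F 2, compared with 0.525 in WT 1 and 8.64 in WT 2. The differences were 1.23 ± 0.85 for Plau and 1.43 ± 1.19 for Plaur (SE, n = 2 each; log2 scale), and without WT 2 they were 0.59 and 2.68.

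The comparison asks whether RNA of these genes differs between PCNA 211F and PCNA WT tumour cells. Of the 10 genes, 9 reached a mean of 1 FPKM over the 4 libraries and were tested, with limma on log2(FPKM + 1) and p adjusted by Benjamini-Hochberg over 12767 genes. None of the 9 passed at an adjusted p of 0.05, where 0% of all tested genes passed; 0 of the 9 and 1.89% of all tested genes had an unadjusted p under 0.05. Unadjusted p was 0.112 for Mmp2, 0.117 for Timp3 and 0.220 for Plau, and up to 0.874 for Mmp14; the limma adjusted p was 0.9999 for each. With 2 libraries a group, the smallest two-sided p that an exact permutation test can give is 0.333. Timp3 lay higher in both 211F libraries, 1 of 9 genes beside 15.2% of all tested genes, and Mmp2 lower, 1 of 9 beside 11.6%; in either direction this is 2 of 9 beside 26.8%. The median difference of the 9 genes was 0.57, with 6 positive and 3 negative, beside a median of 0.03 over all tested genes. Each of the 9 differences was smaller than the larger gap between libraries of 1 genotype, as were 83.8% over all tested genes. The 95% intervals were wide, from -9.02 to 1.39 for Mmp2, from -0.60 to 3.66 for Timp3 and from -8.81 to 9.95 for Mmp14, so these libraries leave room for a large difference in either direction for Mmp14, for a large decrease of Mmp2 and for a large increase of Timp3.

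**Figure D4:**
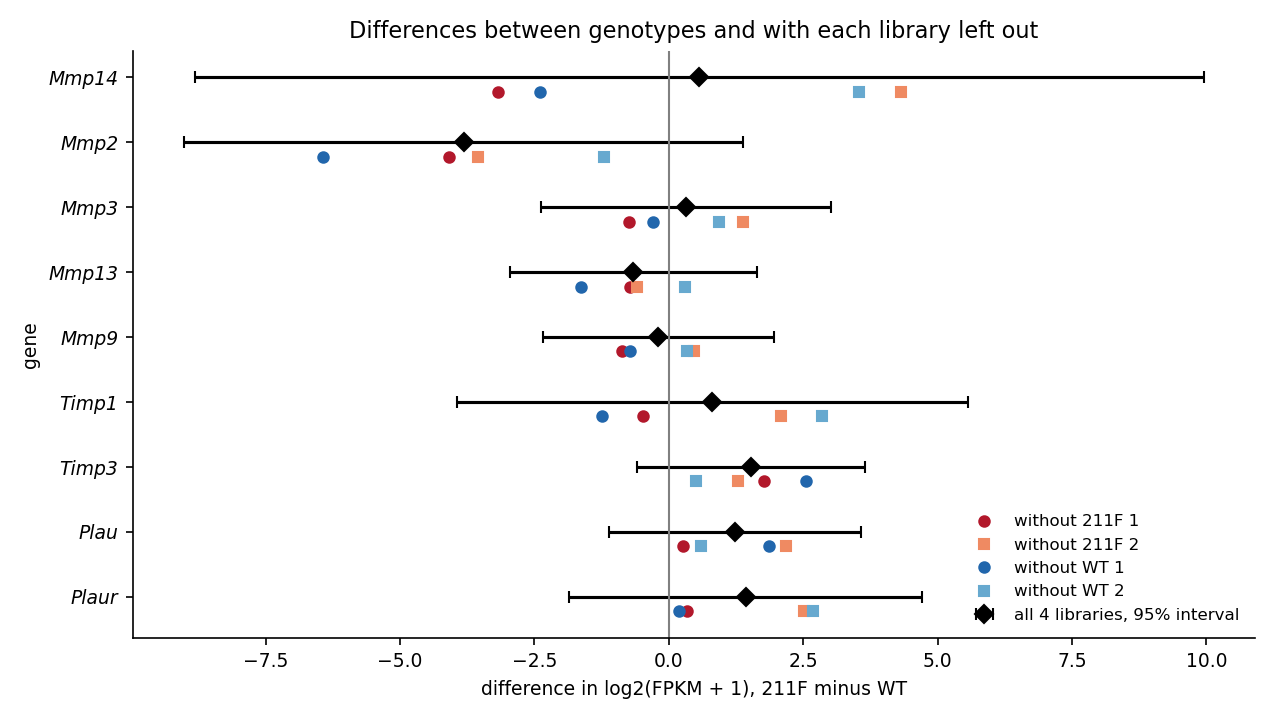
Difference in log2(FPKM + 1), 211F minus WT, of the 9 tested genes; diamonds and bars are the limma estimate with its 95% interval, and coloured points are estimates with 1 library left out. Every interval includes 0, and the points of Mmp14 run from -3.18 without 211F 1 to 4.33 without 211F 2.

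The spread within a genotype was larger for these genes than for the typical gene. The 2 libraries of 211F differed by at least 1 log2 unit in 6 of the 9 tested genes, beside 19.1% of all tested genes, and those of WT in 9 of 9, beside 24.5%. The median gap of the 9 genes was 1.92 within 211F and 2.05 within WT, beside 0.40 and 0.48 over all tested genes. In Mmp3, Mmp9, Mmp10, Mmp13, Mmp14, Timp1 and Plaur, 211F 1 and WT 2 were the highest pair of libraries. This order was picked after the values were seen, and 23.8% of all tested genes have it. Mmp2, Timp3 and Plau had other orders.

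The other metalloproteases, from a list of 17, reached the filter in 6 cases, of which 0 passed limma's test in either direction (median difference -1.08, 2 positive and 4 negative). Mmp11, Mmp23 and Mmp28 lay lower in both 211F libraries, 3 of the 6 tested genes beside 11.6% of all tested genes. Mmp23 and Mmp28 are named after their values were seen, and 0 of the 6 had an unadjusted limma p under 0.05. Mmp11, stromelysin 3, stood at 4.19 FPKM in 211F 1 and 10.6 in 211F 2, against 10.8 FPKM in WT 1 and 24.2 in WT 2. Mmp19 stood at 8.02 FPKM in 211F 1 and 0.185 in 211F 2, against 0.186 FPKM in WT 1 and 40.9 in WT 2. The membrane-anchored Mmp16 stood at 13.8 FPKM in 211F 1 and 0.00881 in 211F 2, against 0.0388 FPKM in WT 1 and 6.49 in WT 2. Mmp16 thus split the libraries as Mmp14 did, at a lower level. Mmp15, another membrane-anchored enzyme, was the other way round, at 2.61 FPKM in 211F 1 and 5.17 in 211F 2, against 13.3 FPKM in WT 1 and 0.260 in WT 2. The remaining inhibitors were led by Timp2, which bridges the Mmp14 protein and the proenzyme of Mmp2, at 366 FPKM in 211F 1 and 373 in 211F 2, against 212 FPKM in WT 1 and 477 in WT 2. Of the 5 listed inhibitors 2 were tested, and 0 passed (Timp2 difference 0.22 ± 0.46, SE). Reck, a membrane-anchored inhibitor, was the other one tested and reached 1.82 FPKM in 211F 1 and 3.31 in WT 2, while Timp4 and Tfpi2 stayed under 1 FPKM in all 4 libraries.

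Of 13 other genes of plasminogen activation 10 were tested and 0 passed, with 4 positive and 6 negative differences and a median of -0.08. Plg, plasminogen itself, a product of the liver, was at most 0.0123 FPKM. Anxa2, S100a10 and Eno1 encode proteins that bind plasminogen, and Eno1, the glycolytic enolase also found at the cell surface, stood at 1337 FPKM in 211F 1 and 1427 in 211F 2, against 1624 FPKM in WT 1 and 1248 in WT 2. Plat, the tissue-type activator, named here after its values were seen, stood at 19.1 FPKM in 211F 1 and 7.68 in 211F 2, against 24.1 FPKM in WT 1 and 75.9 in WT 2. Plat thus lay lower in both 211F libraries, 1 of the 10 tested genes of this list beside 11.6% of all tested genes, while Plau overlapped.

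Among 16 activators and partners of these proteases 14 were tested and 0 passed limma's adjusted test, with 12 positive and 2 negative differences and a median of 0.87. The positive ones include St14, Spint1, Spint2, Prss8 and Cldn1, named after their values were seen. These were under 1 FPKM in WT 2 alone, and their groups overlapped. St14 stood at 17.1 FPKM in 211F 1 and 102 in 211F 2, against 111 FPKM in WT 1 and 0.256 in WT 2. Bsg encodes basigin, a surface protein known to induce metalloproteases in neighbouring cells, and stood at 479 FPKM in 211F 1 and 477 in 211F 2, against 719 FPKM in WT 1 and 862 in WT 2. Its groups did not overlap (difference -0.72 ± 0.24, SE; unadjusted p = 0.0405, limma adjusted p = 0.9999). Cd44, a hyaluronan receptor that can hold Mmp14 at the cell surface, stood at 389 FPKM in 211F 1 and 175 in 211F 2, against 126 FPKM in WT 1 and 139 in WT 2. Lcn2, a small secreted protein that binds the Mmp9 protein in human cells, stood at 16.4 FPKM in 211F 1 and 570 in 211F 2, against 1609 FPKM in WT 1 and 184 in WT 2. Lcn2 was lowest in 211F 1, where Mmp9 was near its highest. Itgb1, the integrin beta 1 chain, stood at 765 FPKM in 211F 1 and 429 in 211F 2, against 323 FPKM in WT 1 and 351 in WT 2. Bsg lay lower in both 211F libraries, 1 of 14 genes beside 11.6% of all tested genes. Cd44, Itgb1 and Itga3 lay higher in both, 3 of 14 beside 15.2%. Unadjusted limma p was under 0.05 for Bsg and Itga3 (0.0309), 2 of 14 beside 1.89% of all tested genes. The limma adjusted p of Itga3 was also 0.9999.

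Of 15 transcription factors of the AP-1, ETS and RUNX families, which are known to act on metalloprotease promoters, 15 were tested and 0 passed, with 13 positive differences and a median of 0.16. Junb stood at 104 FPKM in 211F 1 and 106 in 211F 2, against 77.2 FPKM in WT 1 and 79.7 in WT 2, while Ets1 stood at 54.1 FPKM in each 211F library, against 38.4 in WT 1 and 36.5 in WT 2. Both varied little within a genotype. Ets2 did not: it stood at 48.7 FPKM in 211F 1 and 54.3 in 211F 2, against 97.5 FPKM in WT 1 and 26.3 in WT 2. Fosl2 stood at 56.8 FPKM in 211F 1 and 48.3 in 211F 2, against 31.4 FPKM in WT 1 and 46.1 in WT 2. Fosl1 and Runx1, named after their values were seen, differed between the WT libraries by 4.46 and 1.24 log2 units. Of 14 matrix substrates 13 were tested and 0 passed, with 8 positive and 5 negative differences and a median of 0.67. Fn1, fibronectin, stood at 1851 FPKM in 211F 1 and 26.6 in 211F 2, against 129 FPKM in WT 1 and 622 in WT 2. Spp1, osteopontin, stood at 1400 FPKM in 211F 1 and 122 in 211F 2, against 326 FPKM in WT 1 and 206 in WT 2. Col4a1, a basement membrane collagen chain that gelatinases cut, stood at 389 FPKM in 211F 1 and 101 in 211F 2, against 88.8 FPKM in WT 1 and 81.8 in WT 2.

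**Figure D5:**
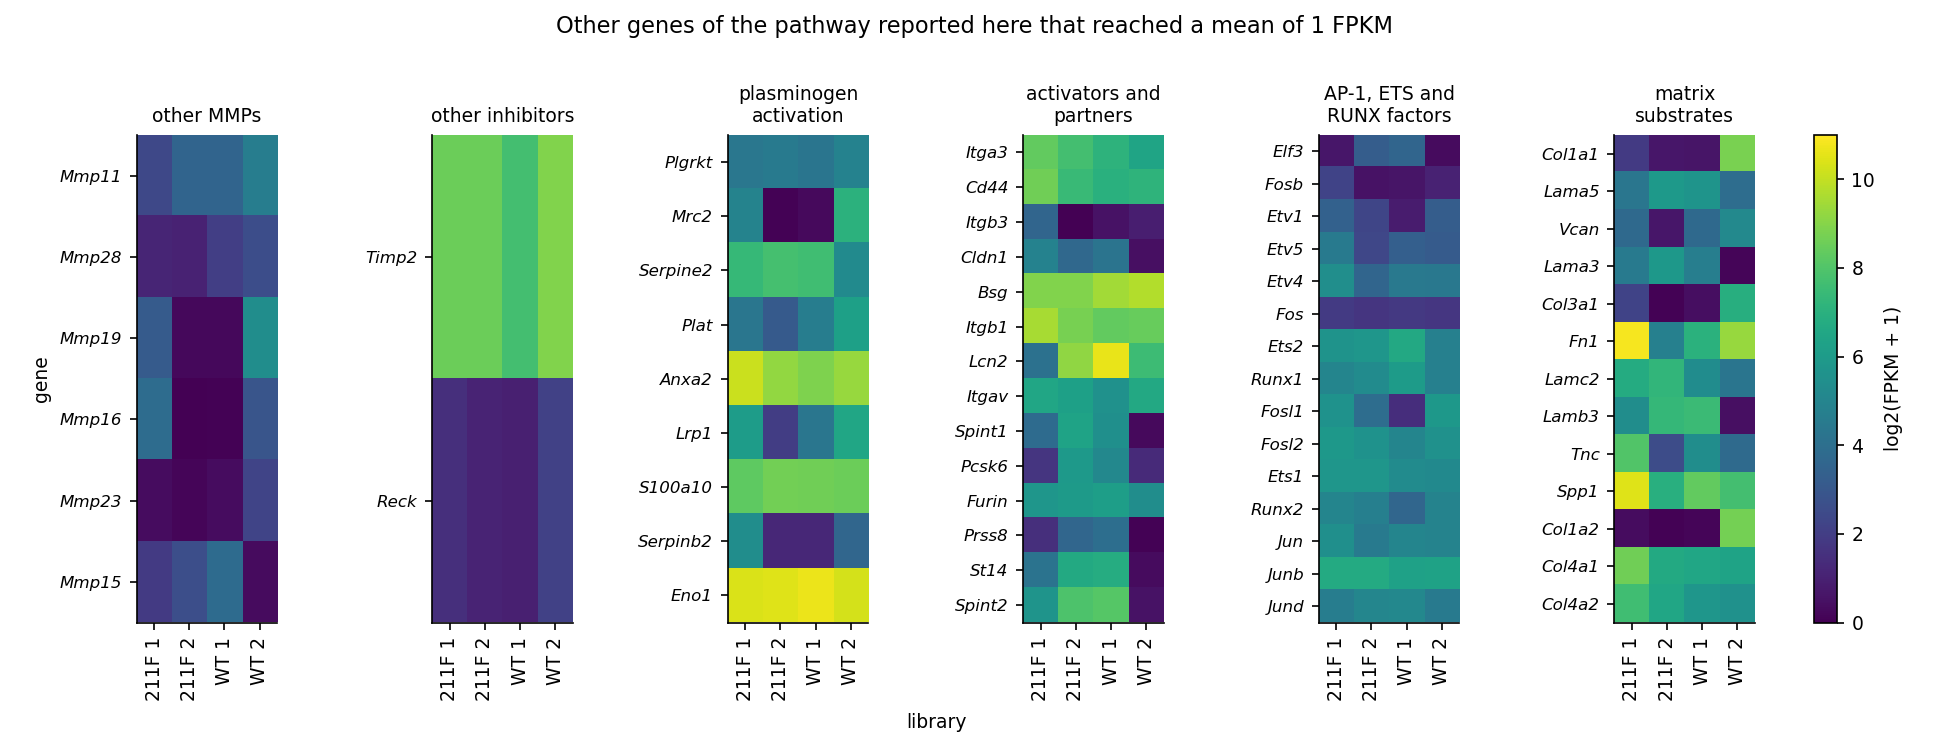
Heat maps of log2(FPKM + 1) for the tested genes of 6 lists that are reported here (rows) in each library (columns, 211F left of WT), on 1 colour scale. Mmp16 and Fn1 are brighter in 211F 1 and WT 2 than in 211F 2 and WT 1, St14 and Spint2 are dark in WT 2, and S100a10 and Eno1 vary little across the libraries.

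For each tested gene the most similar of 11419 other genes was taken by the smallest distance between values of log2(FPKM + 1) centred over the 4 libraries, a description that rests on 4 points. Mmp14 was closest to Fbln2, a matrix glycoprotein, at 392 FPKM in 211F 1 and 0.338 in 211F 2, against 0.540 FPKM in WT 1 and 147 in WT 2. Timp1 was closest to Fosl1, an AP-1 factor, at 47.2 FPKM in 211F 1 and 14.2 in 211F 2, against 1.67 FPKM in WT 1 and 57.7 in WT 2. Timp3 was closest to Fst, the activin-binding protein follistatin, and Mmp2 to Saa3, an acute phase protein, which reached 179 FPKM in WT 2 and no more than 2.19 elsewhere. Plaur was closest to Myh10, a non-muscle myosin, Plau to Tmsb4x, an actin-binding peptide, Mmp3 to Arhgap31, Mmp9 to Ston2 and Mmp13 to Ehd3. Among the 9 genes themselves Mmp3 and Mmp9 were closest, at a distance of 0.76 log2 units, and Mmp14 and Timp3 farthest apart, at 8.05. The distance is not scaled to the range of each gene. Low genes with small ranges, such as Mmp3 and Mmp9, therefore lie close together more readily than genes with wide ranges, such as Mmp14.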

How the data were processed

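The authors deposited 1 table of FPKM values, 50679 Ensembl genes by 4 libraries. The submitters' processing notes name TopHat2 2.0.13, DESeq2 and GRCm38 without saying what each was used for. Not given in the sources used here are the program behind the FPKM values, its annotation, its use of strand and any rescaling. FPKM divides by length and library total, so a very abundant gene lowers the others. The table gives no read counts; steps between low values in 1974 genes with 1 transcript of at least 3000 bp gave the worth of a fragment, with 89.4% to 92.5% of values whole within 0.1 of a fragment.

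Symbols matched 50369 identifiers. Positions are from GENCODE M21 on GRCm38. Values were taken as log2(FPKM + 1), which understates changes of low genes, and genes averaging at least 1 FPKM were tested with limma 3.58.1 in R 4.3.3 (two-sided, intensity trend, Benjamini-Hochberg at 0.05). The 10 genes and the lists were chosen with earlier results of these data known. Named from each list were genes that passed, then the 4 of highest mean; others were named after their values were seen, and 1 gene that the rule took is not reported here. Alternatives changed the pseudocount, filter, normalization, trend, replicate block and libraries.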

Additional observations from a re-analysis of the deposited data

How the results depend on the processing

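Limma called 0 genes overall and 0 of the 10 genes in each alternative run: pseudocounts of 0.1 and 5, no filter, a mean of at least 5 FPKM, quantile normalization, no intensity trend, the replicate block, and each library left out. None of 61 differences of single genes changed sign in the settings that kept all libraries. Leaving out a library turned the sign in 9 cases: the range was -0.75 to 1.38 for Mmp3, -0.86 to 0.48 for Mmp9, -1.63 to 0.31 for Mmp13, -3.18 to 4.33 for Mmp14 and -1.23 to 2.86 for Timp1. Mmp2 (-6.44 to -1.20), Timp3 (0.50 to 2.55), Plau (0.27 to 2.19) and Plaur (0.19 to 2.68) kept their sign, and the smallest limma adjusted p of any of the 10 genes in any alternative was 0.587. With a library left out, the lone library of its genotype is assumed to vary like the others. Genes whose groups did not overlap, counted again after seeing the data, then numbered 1 to 6 higher and 1 to 4 lower in 211F, of 9, beside 29.4% to 35.9% higher and 26.7% to 34.8% lower over all tested genes. With the replicate block, 142 of all tested genes had an unadjusted p under 0.05, against 241 without it. The labels do not say that replicate numbers pair libraries, and libraries with the same number deviated from their group means with r = -0.465 over 12767 genes. With no filter 745 genes had an unadjusted p under 0.05, of 25743 tested, and without WT 1 there were 836; the cause was not tested. Without WT 1, 3 of the 9 genes were among them, with unadjusted limma p of 0.00114 for Mmp2, 0.00628 for Timp3 and 0.0371 for Mmp13 (limma adjusted p at least 0.587).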
